A study of Mus musculus with 5 samples.

Results

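Microtubules are polymers of alpha and beta tubulin, and mammals carry several genes, called isotypes, for each of the 2 proteins. The isotypes differ most in the acidic tail at the end of the protein, which faces outward on the polymer and is read and modified by other proteins. Tubb5, Tubb4b, Tubb6, Tuba1b and Tuba1c are active in many dividing cells, whereas Tubb2a, Tubb2b, Tubb3, Tubb4a and Tuba1a are known for high levels in nervous tissue, and the TuJ antibody that defines TuJ+ cells binds the product of Tubb3. The 10 genes described here are the listed alpha tubulins Tuba1a, Tuba1b and Tuba1c and beta tubulins Tubb2a, Tubb2b, Tubb3, Tubb4a, Tubb4b, Tubb5 and Tubb6. They were picked by name, not by a rule on their values, though with earlier results of these data known. They were matched by Ensembl identifier among 27729 genes. All 10 were among the 13346 genes that reached 10 expected counts in at least 1 library (the genes kept).

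The genes were followed through the conversion of mouse embryonic fibroblasts (MEFs), connective tissue cells of ICR mouse embryos, into TuJ+ neuron-like cells. Day 0 was MEFs before the serum medium was replaced by a serum-free defined medium, and days 2, 5, 10 and 14 were the same kind of culture kept in that medium, with no gene introduced or removed. The study calls the medium 5C and the labels call it 6C; the labels give 5000 cells per well, and their treatment text ends at day 15 although the last library is labelled day 14. Total RNA of whole cultures was sequenced once per day, so no difference between days has a replicate check, no p-value can be given, and fewer cells of a type cannot be told apart from less RNA per cell.

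The coding ends of 6 of the 7 beta tubulin genes, all but Tubb6, are shown because the outward tail of each isotype is encoded there. Each sequence was read from the GENCODE M21 transcripts (GRCm38), runs 5′ to 3′ on the coding strand, opens in lower case with 18 bases at which the isotypes are closely alike, and continues in capitals through the stop codon. The ends are chr13:34074468-34074536 (minus strand) for Tubb2a, chr13:34127471-34127539 (minus) for Tubb2b, chr8:123421599-123421682 (plus) for Tubb3, chr17:57080690-57080755 (minus) for Tubb4a, chr2:25222308-25222376 (minus) for Tubb4b and chr17:35834982-35835047 (minus) for Tubb5.
Tubb2a: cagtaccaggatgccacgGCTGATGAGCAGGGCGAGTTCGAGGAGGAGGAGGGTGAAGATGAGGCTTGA
Tubb2b: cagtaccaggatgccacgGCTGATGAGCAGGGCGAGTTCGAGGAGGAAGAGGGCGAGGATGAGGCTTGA
Tubb3: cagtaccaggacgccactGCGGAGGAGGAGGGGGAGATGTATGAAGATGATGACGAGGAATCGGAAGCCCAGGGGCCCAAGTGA
Tubb4a: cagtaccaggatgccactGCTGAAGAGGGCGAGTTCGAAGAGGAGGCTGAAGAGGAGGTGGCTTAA
Tubb4b: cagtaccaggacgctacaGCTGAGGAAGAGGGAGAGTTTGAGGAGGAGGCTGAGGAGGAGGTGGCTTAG
Tubb5: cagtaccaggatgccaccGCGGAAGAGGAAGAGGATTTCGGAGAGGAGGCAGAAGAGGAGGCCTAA

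After the shared stretch Tubb3 ran on for 66 bases, against 48 in Tubb4a and Tubb5 and 51 in Tubb2a, Tubb2b and Tubb4b. Tubb2a and Tubb2b differed at only 3 of their last 60 coding bases and at 47 of all 1338, which left them 96.5% identical. The other pairs of beta genes were between 80.2% (Tubb5 and Tubb6) and 86.0% (Tubb3 and Tubb6) identical.

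The alpha genes are closer still. Tuba1a and Tuba1b differed at 23 of 1356 coding bases and were 98.3% identical, Tuba1b and Tuba1c were 97.9% identical, and Tuba1a and Tuba1c 97.1%.

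This likeness bears on how sure each count is, because reads that match more than 1 gene are divided by estimation. Of all stretches of 50 bases in the main transcript, 100% were found in no other gene for Tubb3 and Tubb6, 99.8% for Tubb4a and 99.9% for Tubb5. The share was 66.6% for Tubb2b, 54.4% for Tubb2a, 51.8% for Tubb4b, 44.5% for Tuba1a, 40.2% for Tuba1c and 33% for Tuba1b. The split within Tubb2a and Tubb2b, and within the 3 alpha genes, is therefore uncertain, and sums of these genes are given beside the single values. Some stretches of the alpha genes were also found in Slc7a11: 102 of 1754 for Tuba1a, 91 of 1694 for Tuba1b and 45 of 1933 for Tuba1c. The alpha sum is thus not free of shared reads either. The stretches that Tubb4b shared were with the pseudogene Tubb4b-ps1, listed at 0 counts, and with Fam166a, an antisense neighbour with at most 1.05 counts, and no source used here says whether counting used strand.

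The values are expected counts, read numbers per gene as RSEM estimated them, which summed to between 2253748 (day 2) and 3890334 (day 0) per library. At these depths 3 counts, the limit that a count of 0 allows, correspond to 0.771 to 1.33 counts per 1000000. A single gene, Gm42418, held 4.79% of the day 2 counts and at most 0.109% on the other days. Normalized counts are expected counts divided by effective library sizes (TMM method of edgeR) and set to a common scale. Each change is a log2 ratio to day 0, taken after 1 was added to both normalized counts, and a gene was called up-regulated or down-regulated when the change was over 2-fold. The 95% intervals are exact binomial (Clopper-Pearson) intervals of the counts and cover counting error only. All comparisons with day 0 use the same day 0 library and are not independent of each other. TPM values are divided by gene length and are used for the order of levels between genes, and shares and ratios of counts between genes are not corrected for length. TPM values move the whole distribution: the median change of all 13346 genes lay lower by −0.17 on day 2, and higher by 0.56, 0.95 and 0.72 on days 5, 10 and 14, than with normalized counts. Directions on days 10 and 14 that differ between the scales are named with each gene. On day 5 Tubb2a, Tubb2b, Tubb4b, Tubb5 and Tuba1c, and on day 2 Tuba1c, also lay on opposite sides of day 0 in the 2 scales.

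The course of tubulin mRNA as a whole depended on the scale, except that it was below MEFs on day 2 and highest on day 14 on each of 3 scales. The 10 genes held 0.861%, 0.601%, 0.613%, 0.615% and 1.16% of all counts from the first day to the last. Their summed normalized counts in the same order were 33163, 24520, 18182, 17061 and 34780. As summed TPM, which weighs length, they were 6331, 3869, 5719, 7479 and 12810, so day 10 was below day 0 in normalized counts and above it in TPM, and day 14 was close to day 0 in normalized counts and well above it in TPM. Alpha tubulin transcripts made up 61.4% (60.9 to 61.9) of tubulin counts in MEFs and 56.6% (56.1 to 57.1) at the end, with 53.5%, 52.6% and 56.8% on days 2, 5 and 10. The ratio of alpha to beta counts was thus 1.59 on day 0 and between 1.11 and 1.32 later, and the ratio of alpha to beta TPM was 2.02 on day 0 and between 1.34 and 1.64 later.

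The makeup of the tubulin pool differed between days 0 and 14. In MEFs, Tuba1a, Tuba1b and Tubb5 together held most tubulin counts, with 32.3%, 26.0% and 23.2%. On day 14 Tuba1a held 47.2% (46.7 to 47.7), Tubb5 14.9% (14.6 to 15.3), Tubb2b 12.6% (12.3 to 13.0), Tuba1b 8.58% (8.31 to 8.86) and Tubb2a 8.41% (8.14 to 8.69). A share within 1 library does not depend on library scaling. Weighing by length gave the same picture, with 50.7% for Tuba1a, 11.6% for Tubb2b, 11.4% for Tubb5, 9.34% for Tubb2a and 8.90% for Tuba1b of summed TPM on day 14.

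**Figure D1:**
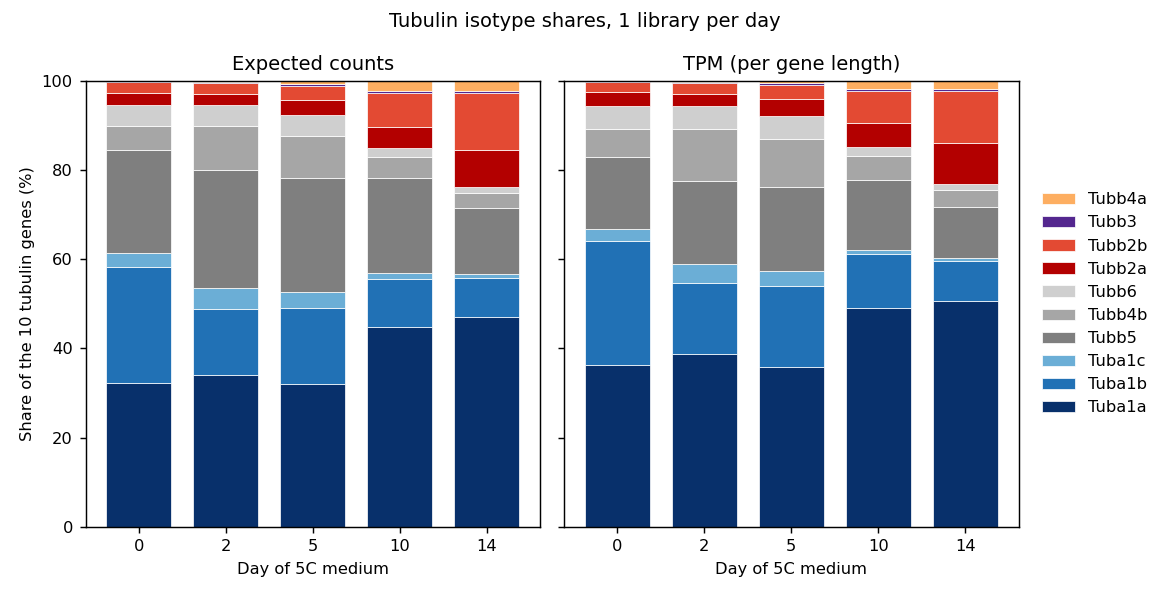
Share of each tubulin gene in the sum of the 10 genes (y axis, percent) by day of 5C medium (x axis), from expected counts (left) and from TPM (right), 1 library per day. The blue Tuba1b segment narrows from 26.0% to 8.58% of counts, and the red Tubb2a and Tubb2b segments together widen from 5.18% to 21.1%.

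Tubb2a and Tubb2b, neighbouring genes on chromosome 13 (34074274 to 34078007 and 34126748 to 34130466) whose products are abundant in neurons, gained the most counts of the beta genes. Tubb2b had normalized counts of 801, 636, 571, 1325 and 4396 from day 0 to day 14. It was below its MEF value on days 2 and 5, and above it on days 10 and 14. Tubb2a had 918, 571, 609, 801 and 2925 on the same days, so it stayed below its MEF value until day 10 and exceeded it on day 14 only. On day 14 Tubb2b was up-regulated by 2.46 (2.35 to 2.57) on the log2 scale and Tubb2a by 1.67 (1.57 to 1.78). In TPM Tubb2a was slightly above day 0 on day 5 (0.11) and further above it on day 10 (0.96), and Tubb2b was above it on day 5 (0.22), where the normalized counts were below.

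In normalized counts most of this increase fell between days 10 and 14, with changes of 1.87 (1.77 to 1.97) for Tubb2a and 1.73 (1.65 to 1.81) for Tubb2b. From day 5 to day 10 the changes were 0.39 (0.26 to 0.53) and 1.21 (1.08 to 1.34). For Tubb2b the order of the 2 steps depended on scale. Its TPM values were 172, 546 and 1481 on days 5, 10 and 14, a larger fold change over the earlier step. Because reads can be exchanged between this pair, the sum of both is the firmer value: it held 5.18% of tubulin counts in MEFs, 4.92%, 6.49% and 12.5% on days 2, 5 and 10, and 21.1% (20.6 to 21.5) at the end. Within beta tubulin alone it went from 13.4% (12.8 to 14.0) to 48.5% (47.8 to 49.3). The ratio of Tubb2b to Tubb2a counts was 0.872 in MEFs and 1.5 (1.44 to 1.57) on day 14, and per length it was 0.717 and 1.24.

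Tubb4a, a beta tubulin of brain, where both neurons and myelin-forming glia use it (chromosome 17, 57080066 to 57087782), had the largest change of the 10 genes. Its normalized counts were 30.8, 56.2, 106, 364 and 794, so each day was higher than the one before. The log2 change grew from 0.85 (0.10 to 1.64) on day 2 through 1.75 (1.21 to 2.41) and 3.52 (3.05 to 4.14) on days 5 and 10, and ended at 4.64 (4.18 to 5.26). Its share of tubulin counts remained small, with 0.0928% on day 0 and 2.28% (2.14 to 2.44) on day 14.

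Tubb3, which encodes the antigen of the TuJ antibody (chromosome 8, 123411424 to 123422015), was the least abundant of the 10 genes per length on days 0, 2, 10 and 14. Its expected counts were 22.4, 22.0, 105, 118 and 180, or 22.1, 39.8, 91.8, 84.2 and 161 after normalization. The first step of its course came between days 2 and 5 (1.18, 0.53 to 1.94), days 5 and 10 were alike within counting error (−0.12, −0.52 to 0.27), and days 10 to 14 differed by 0.92 (0.59 to 1.28). On day 2 the interval of the change against day 0, −0.05 to 1.79, included no change. Tubb3 held 0.0668% (0.0411 to 0.0994) of tubulin counts in MEFs, and 0.162%, 0.505%, 0.494% and 0.462% (0.398 to 0.535) on days 2, 5, 10 and 14. The share of the TuJ antigen's gene in tubulin mRNA therefore did not differ beyond counting error between days 5, 10 and 14, while its normalized count was higher on day 14. Per length, Tubb3 reached 55.8 TPM on day 14, against 1481 for Tubb2b and 1197 for Tubb2a. The annotated gene Gm20388 lies over Tubb3 on the same strand without sharing an exon, and had up to 715 counts.

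**Figure D2:**
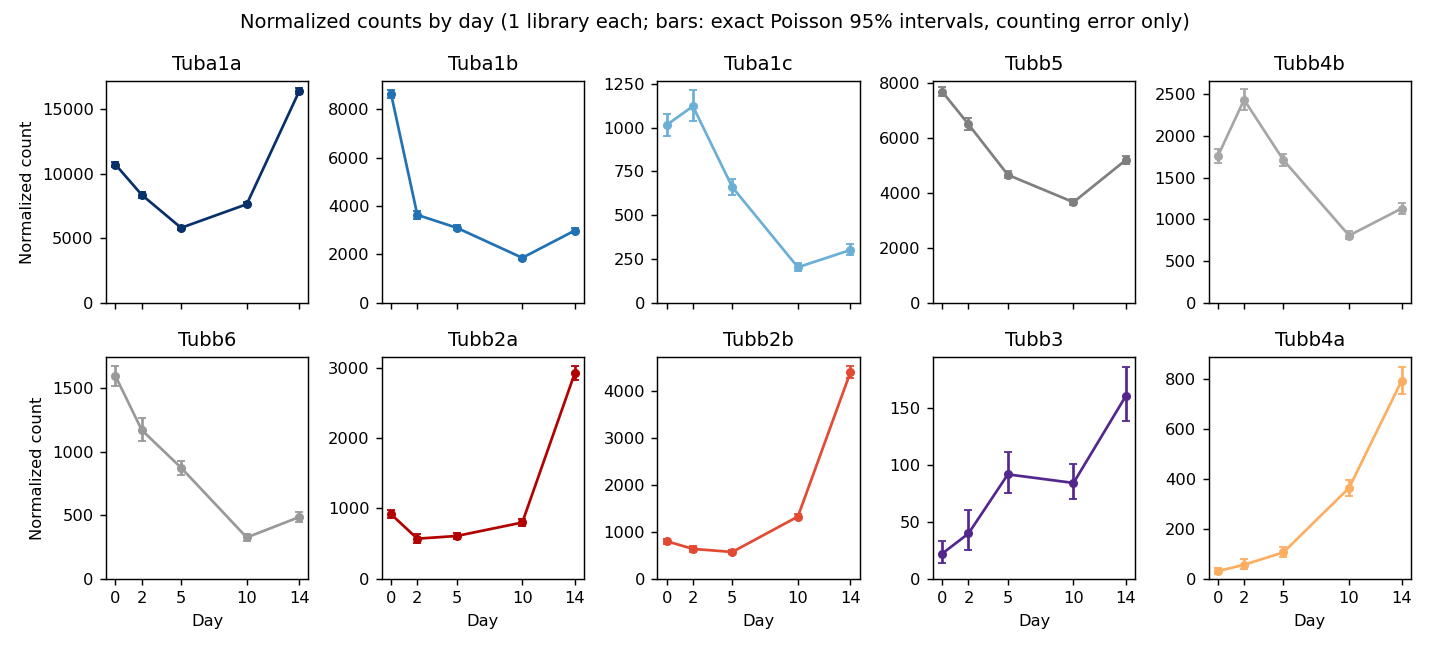
Normalized count (y axis, linear from 0, own range per gene) of each tubulin gene by day (x axis), 1 library per day, with exact Poisson 95% intervals that cover counting error only. Tubb4a climbs at every step to 794, and Tubb2a and Tubb2b climb mostly after day 10. Tubb4b, Tubb5, Tubb6, Tuba1b and Tuba1c are lowest on day 10.

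Of the beta tubulins of dividing cells, Tubb6 was down-regulated, whereas Tubb5 and Tubb4b dipped. Tubb6, a broadly active isotype of non-neural tissue, had normalized counts of 1598, 1172, 875, 326 and 486, with changes of −2.29 (−2.45 to −2.14) and −1.71 (−1.86 to −1.58) on the last 2 sampled days, 10 and 14. In TPM its changes were −1.12 and −0.84 on those days. Its share of tubulin counts stayed near 4.8% through day 5 (4.82%, 4.78% and 4.81%) and was 1.91% on day 10 and 1.40% on day 14.

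Tubb5, the main beta tubulin of most tissues (chromosome 17, 35833921 to 35838306), had 7677, 6490, 4651, 3657 and 5196 normalized counts. It was down-regulated on day 10 (−1.07, −1.12 to −1.02) and lay within 2-fold of MEFs on the other days, with −0.56 on day 14. In TPM and after quantile normalization the day 10 change was above 0 (0.18 and 0.03), and in TPM it was 0.51 on day 14, so the direction for Tubb5 depends on scaling. Its share of tubulin counts does not: in order of days it was 23.2%, 26.5%, 25.6%, 21.4% and 14.9%.

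Tubb4b, which is widely active and also builds cilia (chromosome 2, 25222160 to 25224702), took a different course from Tubb5 and Tubb6. Its normalized counts were 1758, 2435, 1710, 806 and 1130, highest on day 2 and lowest on day 10. The change was −1.12 (−1.23 to −1.02) on day 10 and −0.64 on day 14, and in TPM both were above 0 (0.06 and 0.26). Its share of tubulin counts peaked at 9.93% (9.43 to 10.4) on day 2, from 5.30% in MEFs, and was 9.41%, 4.73% and 3.25% on days 5, 10 and 14.

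Set against each other, Tubb2a, Tubb2b, Tubb3 and Tubb4a held 13.8% (13.2 to 14.4) of beta tubulin counts in MEFs and 54.8% (54.1 to 55.6) on day 14, while Tubb4b, Tubb5 and Tubb6 went from 86.2% to 45.2%. By TPM the first group went from 17.2% to 58.4%. The changeover fell mostly after day 5 and was spread over both later steps: on days 2, 5 and 10 the first group held 11.4%, 16% and 35.0% of beta counts.

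Among the alpha genes, Tuba1a was the most abundant tubulin gene in every library, and Tuba1b and Tuba1c were down-regulated around it. Tuba1a, the main alpha tubulin of developing neurons (chromosome 15, 98949837 to 98953703), had normalized counts of 10712, 8368, 5809, 7639 and 16406. It was below MEFs from day 2 to day 10 and above them on day 14, by 0.61 (0.58 to 0.65), which is within 2-fold. In TPM and after quantile normalization the day 14 change passed 2-fold (1.5 in TPM), and in TPM the day 10 value was above MEFs (0.68). Tuba1b, a broadly active isotype (chromosome 15, 98931425 to 98934565), had 8631, 3631, 3099, 1856 and 2985. It was the earliest of the 10 genes to pass 2-fold, with −1.25 (−1.32 to −1.18) on day 2, reached −2.22 on day 10 and ended at −1.53 (−1.59 to −1.47). In TPM its change on day 14 was −0.62.

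Tuba1c, likewise broadly active (chromosome 15, 99029891 to 99038110), had normalized counts of 1015, 1121, 660, 202 and 301. It was near its MEF value on day 2 (0.14, with an interval that included 0) and down-regulated by day 10 (−2.32) and day 14 (−1.75, −1.93 to −1.57), with −1.15 and −0.87 in TPM. Tuba1a therefore made up 52.6%, 63.8%, 60.7%, 78.8% and 83.3% of alpha tubulin counts in order of days. The ratio of Tuba1a to Tuba1b counts was 1.24 (1.21 to 1.28) in MEFs and 5.50 (5.30 to 5.71) on day 14. As these genes share most of their sequence, their sum is the firmer value: it changed by −0.63, −1.09, −1.07 and −0.05 on days 2, 5, 10 and 14. In TPM the sum was above MEFs on days 10 and 14 (4651 and 7739, against 4234).

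The order of the genes per length shows the same exchange. In MEFs it ran Tuba1a (2302 TPM), Tuba1b (1751), Tubb5 (1024), Tubb4b (390), Tubb6 (322), Tubb2a (205), Tuba1c (181), Tubb2b (147), Tubb4a (4.87) and Tubb3 (4.19). On day 14 it ran Tuba1a (6500 TPM), Tubb2b (1481), Tubb5 (1461), Tubb2a (1197), Tuba1b (1140), Tubb4b (467), Tubb4a (230), Tubb6 (179), Tuba1c (98.6) and Tubb3 (55.8). Tubb5 and Tubb2b, neighbours on day 14, did not differ beyond counting error (TPM ratio 0.987, 0.95 to 1.03), and Tubb2a and Tuba1b differed at its edge (1.05, 1.00 to 1.10). On day 10 the same held for Tubb4b and Tubb2a (1.01, 0.933 to 1.10), and on days 0, 2 and 5 for Tubb4a and Tubb3, with ratios between 0.969 and 1.18.

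**Figure D3:**
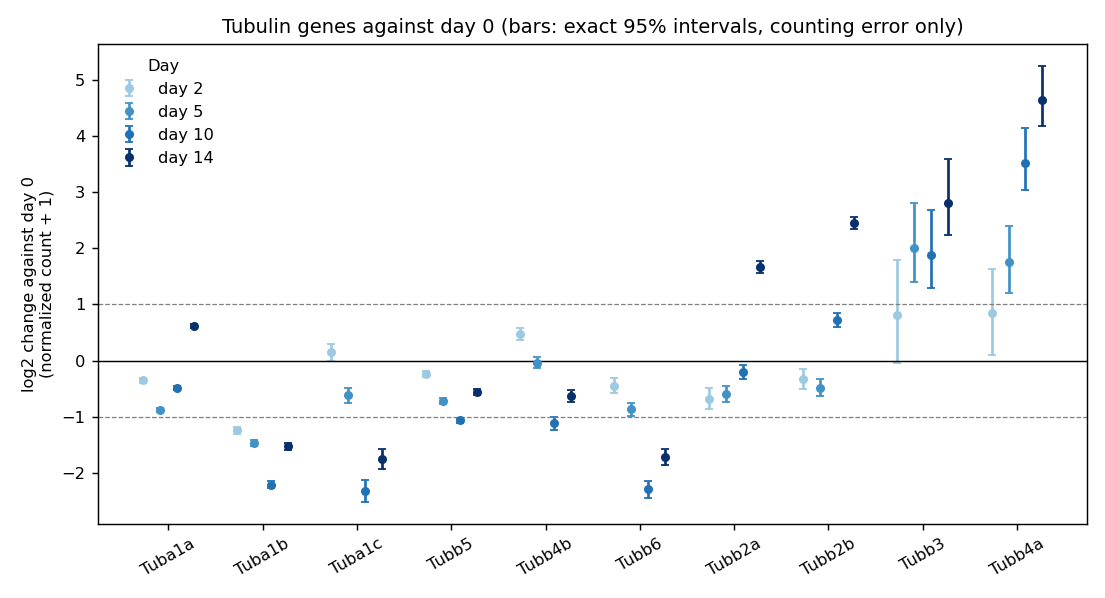
Log2 change against day 0 (y axis, normalized count plus 1) of the 10 tubulin genes (x axis) on days 2, 5, 10 and 14, with exact 95% intervals for counting error. Dashed lines mark 2-fold. Tubb2a, Tubb2b, Tubb3 and Tubb4a lie above the upper line on day 14, and Tuba1b, Tuba1c and Tubb6 below the lower one. In TPM these last 3 changes are −0.62, −0.87 and −0.84.

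Counted by the 2-fold rule, few tubulin genes had moved early. On day 2, 0 of 10 were up-regulated and 1 (Tuba1b) was down-regulated, beside 15.2% and 13.1% of all genes kept. On day 5, 2 were up-regulated (Tubb3 and Tubb4a) and 1 down-regulated (Tuba1b), beside 20.2% and 13.6%. On day 10 the same 2 were up-regulated and 5 were down-regulated (Tubb4b, Tubb5, Tubb6, Tuba1b and Tuba1c), beside 28.7% and 22.3%. On day 14, 4 were up-regulated (Tubb2a, Tubb2b, Tubb3 and Tubb4a) and 3 down-regulated (Tubb6, Tuba1b and Tuba1c), beside 24.5% and 19.9%. Past 4-fold, on days 2, 5, 10 and 14, there were 0, 1, 1 and 3 genes upward, beside 5.36%, 8.7%, 13.9% and 11.7% of all genes kept, and 0, 0, 3 and 0 downward, beside 2.92%, 2.78%, 7.92% and 6.11%. With 10 genes and such backgrounds these counts describe the genes and set them apart from no other group. The median change of the 10 genes was −0.29, −0.61, −0.78 and 0.03 on the 4 days, against −0.03, 0.05, 0.14 and 0.07 for all genes kept.

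In TPM 5 tubulin genes passed 2-fold upward on day 14, with Tuba1a added, and 0 passed downward, beside 41.6% and 6.96% of all genes kept in TPM, and 85.7% of all calls were upward, against 55.2% with normalized counts. On day 10 the TPM calls were 3 up (Tubb2b, Tubb3 and Tubb4a) and 2 down (Tubb6 and Tuba1c), beside 52.9% and 6.77% of all genes kept, with 88.6% of all calls upward against 56.3%. On day 5 they were 2 up and 0 down, beside 32.0% and 3.98%, with 88.9% of calls upward against 59.6%. On day 2 they were 0 up and 1 down, beside 7.90% and 14.0%, with 36.0% against 53.7%.

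Between days 10 and 14, in normalized counts, Tubb2a, Tubb2b, Tubb4a and Tuba1a were up-regulated over 2-fold and 0 of the 10 genes were down-regulated, beside 4.73% and 8.33% of all genes kept. In TPM only Tubb2a (401 to 1197) and Tubb2b (546 to 1481) passed 2-fold. Tubb4a (130 to 230 TPM) and Tuba1a (3677 to 6500 TPM) stayed within it. All 10 tubulin genes were higher on day 14 than on day 10, in normalized counts and in TPM, with differences in normalized counts from 0.49 (Tubb4b) to 1.87 (Tubb2a) on the log2 scale, with a median of 0.80 against 0.02 for all genes kept. From day 5 to day 10, 2 rose over 2-fold in normalized counts (Tubb2b and Tubb4a) and 3 fell (Tubb4b, Tubb6 and Tuba1c), beside 12.8% and 9.5%. In TPM both rises also passed 2-fold, but of the 3 falls only that of Tuba1c did (193 to 81.1 TPM). Tubb4b (624 to 406 TPM) and Tubb6 (288 to 147 TPM) stayed within 2-fold. From day 2 to day 5, 1 rose (Tubb3) and 0 fell in normalized counts, beside 19% and 12.5%. In TPM Tubb4a (7.43 to 27.5) and Tubb2a (107 to 222) also rose over 2-fold.

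Changes in these libraries moved with gene length. On day 10 the median change was −1.15 in the shortest and 0.92 in the longest of 5 equal length classes of the genes kept. Of the tubulin genes 8 lay in class 2 of these, with a median of −0.29 on day 10 and −0.11 on day 14, and Tubb4a and Tubb5 lay in class 3 (0.16 and 0.17). After each change was centred on the median of its length class, 4 genes were up-regulated and 3 down-regulated on day 14, the genes named above, beside 22.2% and 17.9% of all genes kept. On day 10 the numbers were 3 and 4, with Tubb2b added and Tubb4b lost, beside 23.8% and 18.9%. The part of length in the values was not tested.

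Before tubulin can polymerize it is folded by prefoldin and the ring-shaped CCT chaperonin and joined to dimers by folding cofactors. The lists below are read against day 14 shares over all genes kept of 24.5% up and 19.9% down in normalized counts, 41.6% and 6.96% in TPM, and 22.2% and 17.9% after centring on genes of equal length. Of the 8 CCT subunits 7 were down-regulated on day 14 and 0 up-regulated, with a median of −1.49. Cct3 went from 2489 to 842 expected counts (−1.71, −1.82 to −1.60), Cct2 from 2216 to 816 (−1.59) and Cct8 from 2176 to 809 (−1.57). In TPM 0 of 8 passed 2-fold and the median was −0.54, and after centring on genes of equal length 7 did. On day 10 the chaperonin median was −1.78. It was −0.59 in TPM, with 1 of 8 down-regulated, and −1.49 after centring on genes of equal length, with 7.

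Of the 6 prefoldin subunits 4 were down-regulated on day 14 (median −1.79), and 3 in TPM, with 5 of the 6 genes in the shortest length class. The largest changes were those of Pfdn4 (−2.15, −2.60 to −1.76), Pfdn1 (−2.07) and Pfdn6 (−1.98). Of the 7 folding cofactor genes 2 were down-regulated and 1 up-regulated. Tbca, which holds freed beta tubulin, changed by −1.41 (−1.63 to −1.20) and Tbcc, which acts in dimer assembly, by −1.22 (−1.65 to −0.83). Tbcel, a cofactor-like protein that destabilizes tubulin, went from 58 to 169 counts (1.38, 0.96 to 1.85). In TPM Tbcel was the only one of the 7 past 2-fold, and after centring on genes of equal length 0 were up-regulated and 1 down-regulated.

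Genes of the tyrosine cycle, in which the last residue of alpha tubulin is removed and restored, did not all change alike. Vash1, the vasohibin that removes the last tyrosine of alpha tubulin, was at 0, 1 and 2 counts on days 0, 2 and 5. It was at 158 on day 10 and at 80 on day 14. After normalization these 158 and 80 counts were 38-fold and 24.1-fold higher than the 3 counts that a 0 on day 0 allows. Those ratios leave out the counting error of days 10 and 14. With that error included, the lower limits of the log2 change were 4.93 and 4.26. Svbp, the partner that vasohibins need, changed by −1.41 (−1.80 to −1.06) on day 14, and Ttl, the ligase that restores the tyrosine, by 0.27 (−0.15 to 0.69). Together 1 of the 4 tyrosine cycle genes was up-regulated and 1 down-regulated, and the second call was lost in TPM and after centring on genes of equal length.

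Atat1, the alpha tubulin acetyltransferase, had 36 counts on day 0 and 207 on day 14 (2.34, 1.86 to 2.93). The deacetylases Hdac6 and Sirt2 changed by 0.94 (0.52 to 1.39) and −0.13 (−0.33 to 0.08), and in TPM by 2.17 and 0.87. Of the 8 of 13 glutamylation and glycylation genes that were kept, 0 were up-regulated and 4 down-regulated on day 14, in TPM 0 and 0, and after centring on genes of equal length 0 and 2. Among them Tpgs1, a subunit of the tubulin polyglutamylase complex, changed by −1.12 (−1.46 to −0.80) and the glutamylase Ttll4 by 0.45 (−0.01 to 0.93). Of the 4 of 6 deglutamylation genes that were kept 2 were up-regulated and 0 down-regulated, among them Agtpbp1, which trims glutamate chains, by 1.34 (0.86 to 1.88).

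The nucleating complex around gamma tubulin was mostly within 2-fold. Tubg1, the main gamma tubulin, went from 198 to 137 expected counts by day 14 (−0.67, −1.0 to −0.36), with 0.23 in TPM, and 0 of the 4 gamma, delta and epsilon tubulin genes passed 2-fold on day 14, against 2 upward in TPM. Of 10 genes of the gamma-tubulin ring complex and its anchors 0 were up-regulated and 1, Mzt2, was down-regulated (−1.21, −1.73 to −0.74), whereas in TPM 7 were above 2-fold and 0 below, beside 41.6% and 6.96% of all genes kept. The anchoring proteins Cdk5rap2 and Akap9 changed by 0.96 (0.64 to 1.31) and 0.81 (0.40 to 1.26). Of 6 alpha and beta tubulin genes outside the 10, only Tuba4a passed the count filter, with 249, 209, 290, 88.5 and 90 expected counts and a change of −1.60 (−1.98 to −1.26) on day 14, or −0.36 in TPM. Ttc5 and Cnot11, which act in the decay of tubulin mRNA when free tubulin is in excess, changed by 0.64 (0.15 to 1.16) and −0.44 (−0.81 to −0.08), and in TPM by 1.43 and 0.41.

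**Figure D4:**
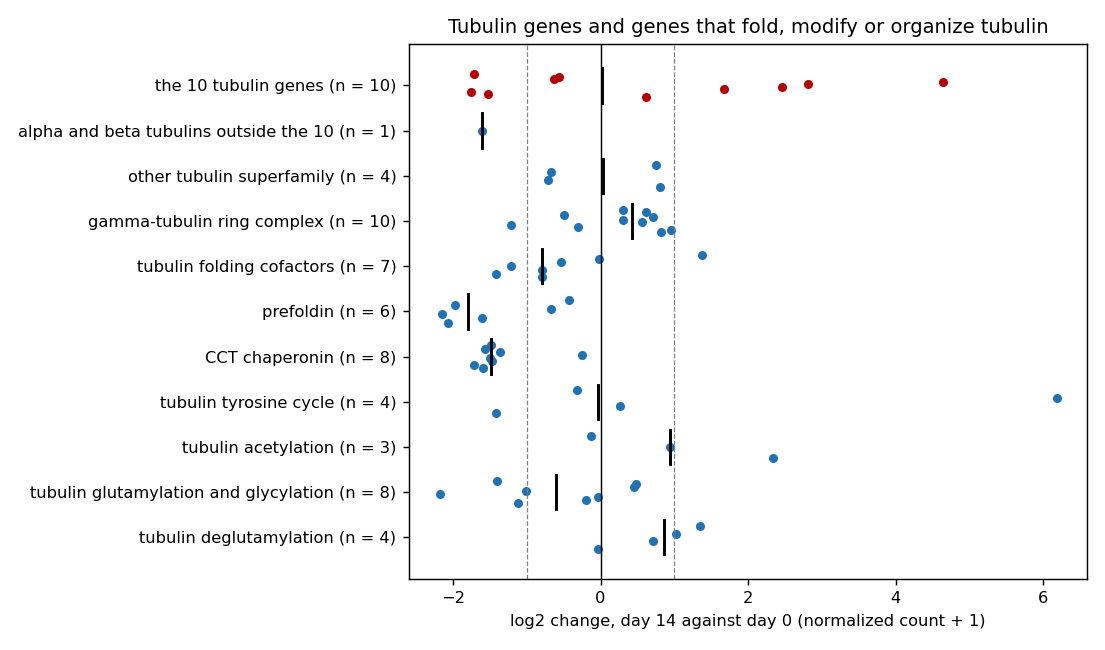
Log2 change on day 14 against day 0 (x axis, normalized count plus 1) of the 10 tubulin genes (red) and of genes that fold, modify or organize tubulin (blue), 1 point per gene, with the median of each list as a black bar and dashed lines at 2-fold. CCT chaperonin subunits lie to the left with a median of −1.49 (−0.54 in TPM), and the point at the far right is Vash1, whose position depends on the pseudocount because it had 0 counts on day 0.

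The genes whose course was most like that of Tubb3 were sought among 8272 genes that reached 100 expected counts in at least 1 library, by the root mean square difference of the log2 changes over the 4 later days. The nearest were Lhfpl2 (0.217), Ssc5d (0.242), Igfbp3 (0.248), Adamts2 (0.261) and Angptl2 (0.270). Igfbp3 and Angptl2 encode secreted proteins and Adamts2 a protease that processes collagen. For Tubb6 the nearest were Tmem192 (0.127), Gng10 (0.149), Mthfd2 (0.154), Aimp1 (0.154) and Cox7b (0.162). No other tubulin gene was among the 5 nearest of either. Counting error was not part of this search. The day 14 interval of Tubb3, 2.24 to 3.60, was wide beside these distances, and all its changes share the 22.4 counts of day 0. Which genes come nearest to Tubb3, and in what order, is therefore uncertain.

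The marker lists of cell types were read beside the tubulin genes. The 7 fibroblast markers were all detected on every day and summed to 1648, 1089, 2714, 5034 and 5500 TPM from day 0 to day 14, led by the collagen gene Col1a1. On day 14, 2 of the 7 were up-regulated and 2 down-regulated: Dcn (4.86) and Pdgfra (2.44) against Twist2 (−2.71) and Thy1 (−1.39), which are named after their values were seen. The 11 neuron markers summed to 104 TPM on day 0 and to between 50.3 and 69.6 TPM later. Of these Rbfox3 had 0 counts in every library, Dcx had 0 on days 2, 5, 10 and 14, and Elavl3 and Elavl4 had 0 on day 14. Stmn2, the most abundant neuron marker, changed by −1.45 (−1.72 to −1.21) on day 14. It held most of the sum on day 0, and without it the other 10 summed to 20.4, 9.46, 45.2, 39.1 and 14.1 TPM from day 0 to day 14. Of the 6 neuron markers kept, 3 were up-regulated and 3 down-regulated in normalized counts on days 5 and 10, and 2 and 3 on day 14. The shares of all genes kept were 20.2% and 13.6% on day 5, 28.7% and 22.3% on day 10, and 24.5% and 19.9% on day 14. The neuron markers up-regulated on day 14, named after their values were seen, had few counts. Snap25 had 0, 0, 22, 11.96 and 7.01 from day 0 on, and Nefl 1.67, 12, 83, 25 and 5.

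The 7 Schwann cell and neural crest markers summed to 12.5, 17.7, 202, 1828 and 1990 TPM from day 0 to day 14 and were all up-regulated on day 14, led by the receptor gene Ngfr (6.82, 6.39 to 7.39). The 4 astrocyte markers went from 3.70 to 81.1 TPM, with Gfap and Aqp4 at 0 counts on day 0 and Aldh1l1 the most abundant, and the 5 macrophage markers from 19.8 to 97.4 TPM with 204 on day 5, led by Cd68. The 7 proliferation markers summed to 132, 113, 354, 265 and 44.8 TPM. In normalized counts all 7 were down-regulated on day 14, Mki67 by −2.23 (−2.92 to −1.67). Their day 14 changes in TPM lay between −2.20 (Top2a) and −0.46 (Bub1), with −1.0 for Mki67, so not all 7 passed 2-fold on that scale. Over the same days Tubb2a and Tubb2b together had 352, 204, 394, 947 and 2678 TPM, and Tubb3 and Tubb4a together 9.06, 13.7, 55.9, 165 and 286 TPM. The part of these cell types and of proliferation in the tubulin values was not tested.

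**Figure D5:**
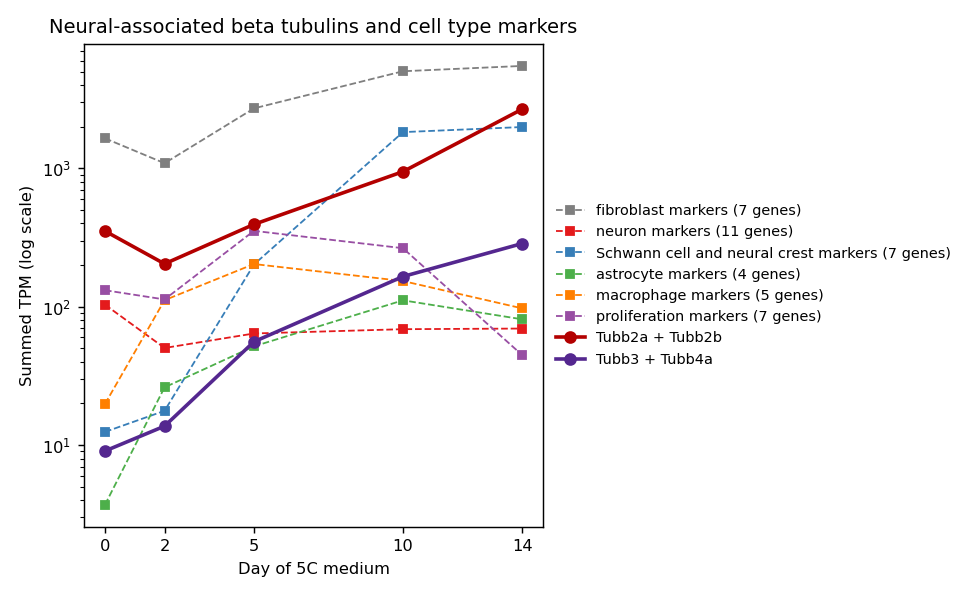
Summed TPM (y axis, log scale) by day of 5C medium (x axis) for Tubb2a plus Tubb2b and Tubb3 plus Tubb4a (solid lines) and for 6 lists of cell type and proliferation markers (dashed lines), 1 library per day. The tubulin pairs reach 2678 and 286 TPM on day 14, the Schwann cell and neural crest markers 1990 TPM, and the neuron markers stay at or below 104 TPM.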

How the data were processed

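RNA was measured in 1 library per day, assigned to days by the labels. The authors deposited expected counts per gene (RSEM estimates, unscaled), TPM values (divided by gene length, scaled to 1000000 per library) and FPKM values (not used here). The deposited lengths served for 5 length classes. Per the labels' processing notes Bowtie, RSEM and mm10 were used; versions and read length are not given in the sources used here. Symbols and coordinates came from GENCODE M21 (GRCm38), which matched 27247 of 27729 identifiers.

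Expected counts were rounded for TMM factors (edgeR 4.0.16, R 4.3.3; Python 3.11.15, scipy 1.17.1). A pseudocount of 1, a minimum of 10 counts in 1 or more libraries and a threshold of 2-fold were used. Reads carry no molecular identifiers. Each list is represented in the text by its 3 genes with the largest change on day 14 among genes with 100 or more counts, and each marker list by its most abundant gene. Members, lists and tests were chosen with earlier results of these data known. Alternatives were DESeq2 size factors (1.42.0), total counts, quantile normalization, library sizes without Gm42418 and Lars2, TPM, other pseudocounts, filters and thresholds, and other denominators of the shares. The scripts were tested on simulated counts.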

Additional observations from a re-analysis of the deposited data

How the results depend on the processing

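DESeq2 size factors, a pseudocount of 5, whole counts without a pseudocount, library sizes without Gm42418 and Lars2, no filter and a filter of 100 counts left every number of up-regulated and down-regulated tubulin genes within 1.5 times. TPM values left 0 down-regulated genes on day 5, 2 on day 10 and 0 on day 14, in place of 1, 5 and 3, quantile normalization left 0 on day 5 and 3 on day 10, and total counts left 3 on day 10. A 4-fold threshold left 0, 0, 3 and 0 down-regulated on days 2, 5, 10 and 14, and 1 up-regulated on day 5 and 1 on day 10 in place of 2. On day 10 Tubb4b changed by 0.060 in TPM in place of −1.12, and Tubb5 by 0.18 in TPM and 0.028 after quantile normalization in place of −1.07. On day 14 the shares of Tuba1a, Tubb2b and Tubb5 were 50.7%, 11.6% and 11.4% in TPM in place of 47.2%, 12.6% and 14.9%. Within the alpha or beta genes alone they were 83.3%, 29.1% and 34.4%, and 1.07% for Tubb3 in place of 0.462%. With near-identical genes summed they were 56.6% for the alpha genes and 21.1% (21.05%) for Tubb2a and Tubb2b. TMM without the day 2 library and centring on genes of equal length were chosen after seeing the data and kept these numbers within 1.5 times. Depth limits Tubb3 and Tubb4a most, with 22.0 to 31.1 counts on days 0 and 2. No paired analysis was possible because each day has 1 library, and for the same reason no library could be left out with a day still compared.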
